A study of Sus scrofa with 20 samples.

Results

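Glucose and amino acid transporters of the solute carrier (SLC) families 1, 2, 3, 5, 6, 7, 36, 38 and 43 were followed in the uterus of inseminated and non-inseminated sows. The members are all genes whose symbol names one of these families followed by A and a number, 83 of the 30345 named genes in the count table. They fall into 13 SLC2, 12 SLC5, 7 SLC1, 2 SLC3, 13 SLC7, 18 SLC6, 4 SLC36, 11 SLC38 and 3 SLC43 genes. The families are defined by sequence, so some members carry other solutes, among them vitamins, inositol, neurotransmitters and creatine. Of the 83 members, 65 passed the filter on low counts and were tested.

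The 20 sows were wild-type Large White by Landrace crosses, with a mean parity of 3.53 ± 1.12 (error as the series text gives it), in 4 groups of 5. FR1 sows received semen made of the rich fraction of the boar ejaculate, FR2 sows the rich and intermediate fractions, and FR3 sows the rich, intermediate and poor fractions, while control sows were not inseminated. Semen came from 3 Pietrain boars, and insemination was post-cervical, starting at the onset of estrus and repeated every 24 h (2.53 ± 0.74 inseminations per sow). Uterine tissue was taken 6 days after the onset of estrus, and poly-A RNA was sequenced from 1 library per sow. The labels do not say which sows carried embryos, so semen, the procedure and any embryos cannot be told apart in a comparison with control.

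Glucose enters cells through the facilitative carriers of the SLC2 (GLUT) family and the sodium-coupled carriers of the SLC5 (SGLT) family. Amino acids cross by sodium-coupled uptake (SLC1, SLC6, SLC38), by proton-coupled export and uptake in some members of SLC36, and by facilitated diffusion (SLC43). They also cross by exchange, in which an SLC7 light chain usually pairs with an SLC3 heavy chain. In the pig uterus before implantation, epithelial carriers move glucose and amino acids such as arginine and leucine into the lumen, where the free-living conceptus takes them up.

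Library totals lay between 33 and 62.9 M counts. Libraries are named by group and column number. All 12 epithelial markers checked were present in all libraries, and so were all 6 smooth muscle and all 7 stromal fibroblast markers. Libraries FR1_1, FR1_4, FR2_3 and FR3_4 had summed epithelial markers of 1580 to 1990 CPM (counts scaled to library size), against 2820 to 6510 in the other inseminated libraries and 4420 to 7750 in the controls. The sums add CPM, so abundant markers weigh most. KRT8, KRT19, KRT7, CDH1 and CLDN4 were lower in each of FR1_1, FR1_4, FR2_3 and FR3_4 than in every other inseminated library. EPCAM, KRT18, MUC1, ELF3, CLDN7, ESRP1 and GRHL2 did not set those libraries apart in this way. CONTROL_1 had a smooth muscle sum of 1020 CPM, against 14200 to 31500 in the other controls. In whole-tissue RNA, fewer cells of a type and less RNA per cell cannot be told apart.

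Insemination was compared with no insemination over all 15 inseminated and 5 control libraries. Of the 65 members tested, 10 changed at an adjusted p below 0.05 (15.4%), against 11.1% of all 17745 genes tested. The 2 higher members (3.08%, against 2.87% of all genes) were SLC38A1, a sodium-coupled glutamine carrier, and SLC7A11, the light chain of the cystine/glutamate exchanger. The 8 lower members (12.3%, against 8.20% of all genes) were the glucose carrier SLC2A1, the inositol carriers SLC2A13 and SLC5A3, the vitamin carrier SLC5A6, the glutamate carriers SLC1A1 and SLC1A3, the light chain SLC7A9 and the imino acid carrier SLC6A20. The median log2 fold change was -0.17 over the 65 members and -0.05 over all genes, with 29 members above and 36 below 0. At an unadjusted p below 0.05 there were 21 members (32.3%), against 26.0% of all genes. No member held all 15 inseminated values on the same side of all 5 controls, as 0.468% of all genes did. Other settings called fewer or more genes of every kind. The exact rank-sum test called no member, against 1.88% of all genes, limma-voom called SLC38A1, SLC5A6 and SLC7A9, against 1.45% of all genes, and DESeq2 called 13 members of 64, against 16.3% of all genes. With CONTROL_2, CONTROL_3 and CONTROL_4 left out, only CONTROL_1 and CONTROL_5 remained as controls. In that fit 4 members were called, against 2.78% of all genes, among them SLC38A1 and SLC7A9. All log2 fold changes, standard errors and adjusted p-values are from edgeR's quasi-likelihood test with Benjamini-Hochberg adjustment over all genes tested, and levels are scaled CPM.

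**Figure D1:**
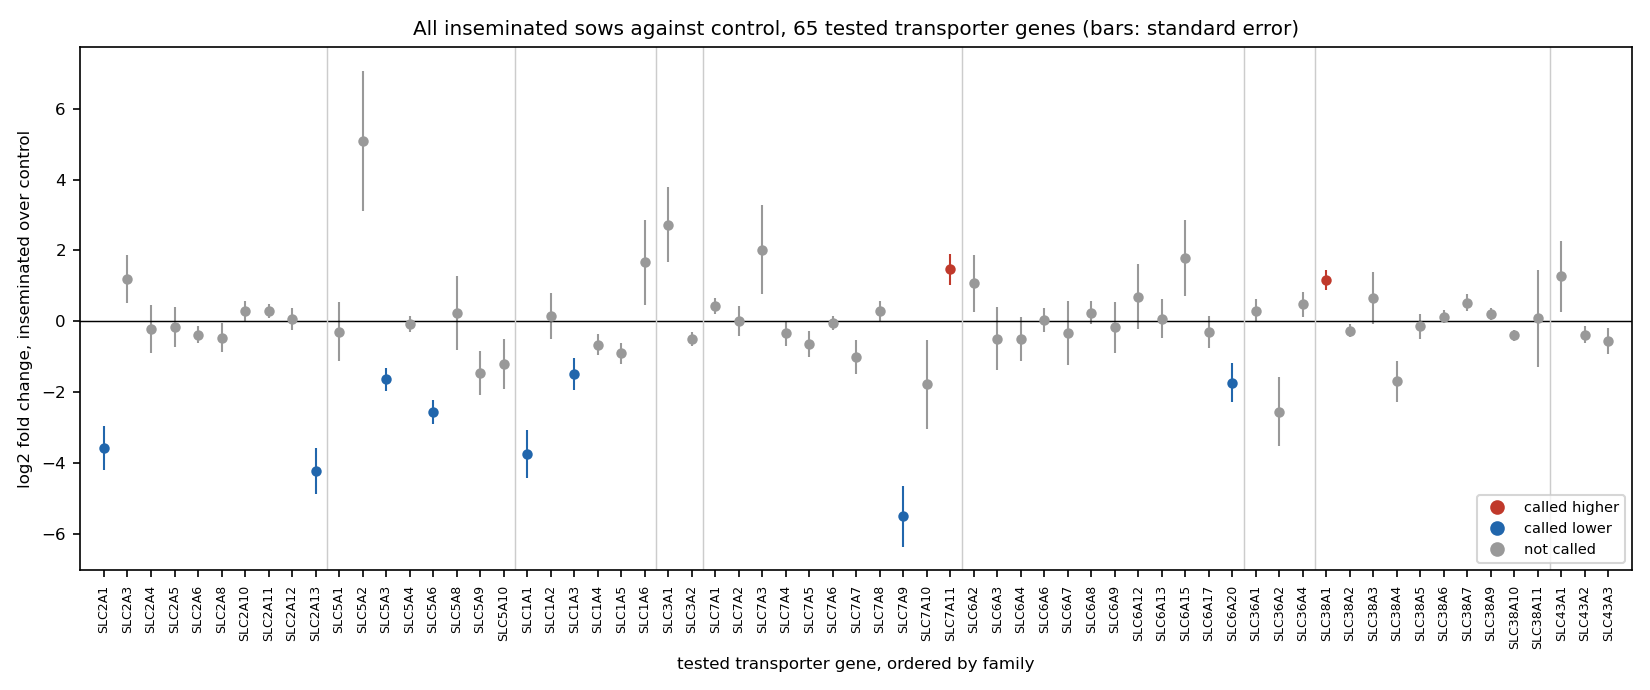
Log2 fold change of all inseminated over control libraries (vertical axis) for the 65 tested transporter genes, ordered by family along the horizontal axis with grey lines between families. Points are the fitted values, bars their standard errors, and the 2 red and 8 blue points are the genes called higher and lower. The large value of SLC5A2 is not called and rests on 2 control counts in all.

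In the glucose carriers of the SLC2 family, 10 of 13 members were tested, and 2 fell. SLC2A1 (GLUT1), the carrier of basal glucose uptake in most cells, ran from 32.4 to 130 CPM in inseminated libraries with a median of 59.4, against 73.7, 143, 3390, 80.9 and 54.4 CPM in CONTROL_1 to CONTROL_5. A single control library was far above the rest, and the other 4 controls lay close to or within the inseminated range. The resulting log2 fold change was -3.59 ± 0.62 (SE, n = 15 and 5, edgeR adjusted p = 0.00116). Without CONTROL_3 it was -0.51 (edgeR adjusted p = 0.28), so the call rested on that library. SLC2A13 (HMIT), a proton-coupled myo-inositol carrier, had 5.59 to 25.2 CPM in inseminated libraries (median 9.34), against 10.5, 420, 531, 3.23 and 16.9 CPM in the controls. CONTROL_2 and CONTROL_3 stood far above, CONTROL_1 and CONTROL_5 lay within the inseminated range, and CONTROL_4 lay below all inseminated values. Its log2 fold change was -4.22 ± 0.65 (edgeR adjusted p = 0.000431), and -0.37 (edgeR adjusted p = 0.659) without CONTROL_2, CONTROL_3 and CONTROL_4.

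The other SLC2 members did not pass the test. SLC2A3 (GLUT3), a high-affinity glucose carrier, ran from 30.4 to 851 CPM in inseminated libraries (median 294), against 301, 147, 29.7, 49.1 and 93.7 CPM in the controls. Its log2 fold change was 1.20 ± 0.68 (edgeR adjusted p = 0.28), and all controls lay within or just below the inseminated range. The sugar carrier SLC2A8 (GLUT8) had a log2 fold change of -0.46 ± 0.42 and a control library of 247 CPM, CONTROL_2, above all others. SLC2A12 (GLUT12) differed by 0.05 ± 0.31, with 13.5 to 83.5 CPM in inseminated and 16.8 to 48.2 CPM in control libraries. The insulin-responsive SLC2A4 and the fructose carrier SLC2A5 were near 1 CPM or lower in most libraries. The liver-type carrier SLC2A2, with SLC2A7 and SLC2A9, was too low to test.

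In the sodium-coupled SLC5 family, 8 of 12 members were tested. SLC5A6, the sodium-dependent multivitamin transporter for biotin and pantothenate, had the smallest p of all members. It ran from 15.3 to 34.0 CPM in inseminated libraries (median 21.5), against 65.9, 192, 334, 45.2 and 23.8 CPM in CONTROL_1 to CONTROL_5. All controls but CONTROL_5 exceeded the highest inseminated value. SLC5A6 averaged 22.4 ± 4.56 CPM in inseminated sows (SD, n = 15) and 132 ± 130 CPM in control sows (SD, n = 5). The log2 fold change was -2.56 ± 0.35 (edgeR adjusted p = 0.000188), and -0.98 (edgeR adjusted p = 0.0537) without CONTROL_2, CONTROL_3 and CONTROL_4. ATRAID, which overlaps SLC5A6 in the RefSeq gene table, had a log2 fold change of -0.35 ± 0.16 (edgeR adjusted p = 0.189).

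SLC5A3 (SMIT1), the sodium-coupled myo-inositol carrier, had 1.71 to 19.2 CPM in inseminated libraries (median 11.1), against 26.8, 42.3, 63.7, 21 and 11.3 CPM in the controls. The same 4 controls again lay above all inseminated sows. On the log2 scale the change was -1.64 ± 0.33 (edgeR adjusted p = 0.00308), and -0.81 (edgeR adjusted p = 0.336) without CONTROL_2, CONTROL_3 and CONTROL_4. MRPS6, which overlaps SLC5A3, had -0.71 ± 0.25 (edgeR adjusted p = 0.0705), and whether the libraries keep strand is not settled by the labels.

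SLC5A1 (SGLT1), the sodium-coupled glucose carrier of absorptive epithelia, did not pass the test. Its range was 0.746 to 290 CPM in inseminated libraries (median 80.6), against 70.3, 49.8, 188, 11.5 and 184 CPM in the controls. Inseminated over control it was -0.29 ± 0.84, and values within a group differed by more than the group medians. SLC5A2 (SGLT2), the renal glucose carrier, was also not called. It had 342 counts over the 15 inseminated libraries and 2 counts over the 5 controls, a ratio of 54.9 after scaling for library size (95% exact Poisson interval 15.1 to 456, counting error only). FR1_4 alone had 3.23 CPM, and without it the ratio was 33.5 (9.16 to 279). The pooled counts hide that FR1_2, FR1_5, FR2_2, FR2_3, FR3_3, FR3_4 and FR3_5 had no count of SLC5A2. Both control counts were in CONTROL_1.

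In the glutamate and neutral amino acid carriers of the SLC1 family, 6 of 7 members were tested. SLC1A1 (EAAT3), an epithelial glutamate carrier, ran from 0.433 to 3.72 CPM in inseminated libraries (median 1.64), against 1.97, 1.66, 104, 6.50 and 1.20 CPM in the controls. Apart from CONTROL_3 and CONTROL_4 the controls lay inside the inseminated range. It had a log2 fold change of -3.74 ± 0.68 (edgeR adjusted p = 0.00165), and -0.72 (edgeR adjusted p = 0.411) without CONTROL_3. LOC110256886, a long non-coding RNA gene that overlaps SLC1A1, had -2.92 ± 1.06 (edgeR adjusted p = 0.0821). SLC1A3 (EAAT1), another glutamate carrier, had 0.600 to 3.55 CPM in inseminated libraries (median 1.34), against 12.9, 2.86, 1.35, 4.47 and 1.41 CPM in the controls. CONTROL_1 was the highest, and 3 controls overlapped the inseminated sows. Its log2 fold change was -1.49 ± 0.46 (edgeR adjusted p = 0.0422), and -0.62 (edgeR adjusted p = 0.387) without CONTROL_1. With 1 library left out in turn, the call of SLC1A3 was lost in 11 of 20 fits.

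The glutamine exchanger SLC1A5 (ASCT2) narrowly missed the threshold. It had 12.1 to 42.5 CPM in inseminated libraries (median 28.7), against 30.4, 37.8, 131, 46.2 and 20.3 CPM in the controls, with a log2 fold change of -0.91 ± 0.30 (edgeR adjusted p = 0.0593). The neutral amino acid exchanger SLC1A4 (ASCT1) had -0.66 ± 0.31 (edgeR adjusted p = 0.183).

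The exchangers pair an SLC7 light chain with an SLC3 heavy chain. The cystine and dibasic amino acid exchanger joins SLC7A9 (b0,+AT) to SLC3A1 (rBAT), and its 2 chains had fold changes of opposite sign. SLC7A9 ran from 0 to 2.39 CPM in inseminated libraries (median 0.505), against 59.2, 70.0, 9.77, 2.68 and 0.394 CPM in CONTROL_1 to CONTROL_5. The lowest of these, CONTROL_5, lay inside the inseminated range, and the other 4 controls lay above it. The log2 fold change of SLC7A9 was -5.50 ± 0.86 (edgeR adjusted p = 0.00046), and -5.54 (edgeR adjusted p = 0.00985) without CONTROL_2, CONTROL_3 and CONTROL_4. The latter fit kept CONTROL_1 and CONTROL_5 as its only controls, so its value rested on CONTROL_1. TDRD12, which overlaps SLC7A9 in the RefSeq table, had 0.53 ± 0.43 (edgeR adjusted p = 0.48).

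SLC3A1 ran from 1.54 to 394 CPM in inseminated libraries (median 116), against 38.4, 1.94, 38.8, 1.57 and 10.0 CPM in the controls. In 11 of 15 inseminated libraries it was above all controls, and the other 4 were FR1_1, FR1_4, FR2_3 and FR3_4, at 1.54 to 11.3 CPM. The fitted log2 fold change of 2.72 ± 1.06 did not pass the test (edgeR adjusted p = 0.106). Without those 4 libraries the log2 fold change was 3.15, a value that leaving out the lowest inseminated libraries alone raises and that is given with no test. PREPL, which overlaps SLC3A1, had 1.1 ± 0.43 over all libraries (edgeR adjusted p = 0.107).

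SLC7A11 (xCT), which brings in cystine for glutathione synthesis, had 41.6 to 289 CPM in inseminated libraries (median 101), against 32.8, 29.3, 35.1, 9.62 and 103 CPM in the controls. The pattern was turned round, with CONTROL_5 near the inseminated median and the other 4 controls under the whole inseminated range. SLC7A11 averaged 122 ± 68.2 CPM in inseminated sows (SD, n = 15) and 42.0 ± 35.6 CPM in control sows (SD, n = 5). Inseminated over control it was higher, with a log2 fold change of 1.47 ± 0.44 (edgeR adjusted p = 0.0364). Leaving out CONTROL_1, CONTROL_2, CONTROL_3 or CONTROL_4 ended the call, with log2 fold changes of 1.21 to 1.41, and leaving out CONTROL_5 gave 2.13 (edgeR adjusted p = 0.00168). The call was also lost without FR1_2 or without FR2_4.

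SLC3A2 (4F2hc), the heavy chain that SLC7A11 and the light chains SLC7A5, SLC7A6, SLC7A7 and SLC7A8 share, did not pass the test. It had 60.3 to 132 CPM in inseminated libraries (median 71.0), against 167, 68.3, 144, 60.1 and 110 CPM in the controls, a log2 fold change of -0.51 ± 0.20 (edgeR adjusted p = 0.109). It was called lower without CONTROL_2 (-0.64, edgeR adjusted p = 0.0486) or CONTROL_4 (-0.65, edgeR adjusted p = 0.0408). CONTROL_2 and CONTROL_4 held the lowest control values of SLC3A2, so leaving out either lowers the fold change by itself. These calls are therefore no support for a difference. The large neutral amino acid exchanger SLC7A5 (LAT1) had -0.65 ± 0.37 (edgeR adjusted p = 0.288), and the RefSeq table lists its identifier as a long non-coding RNA. Its highest value, 183 CPM, was in CONTROL_1, and without that library the log2 fold change was 0.021. The cationic amino acid exchanger SLC7A7 (y+LAT1) was likewise highest in CONTROL_1, at 106 CPM where the remaining controls had 6.07 to 12.9 CPM, and its log2 fold change of -1.02 ± 0.48 changed sign to 0.60 without it. SLC7A1 (CAT1), the main arginine carrier of many cells, had 0.43 ± 0.22, SLC7A2 (CAT2) 0.02 ± 0.42, SLC7A6 -0.05 ± 0.21 and SLC7A8 (LAT2) 0.29 ± 0.28 on the same log2 scale, and none passed.

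In the SLC6 family, 12 of 18 members were tested and 1 fell. SLC6A20, a sodium-coupled proline and imino acid carrier, ran from 0.701 to 18.6 CPM in inseminated libraries (median 5.18), against 4.88, 57.3, 24.5, 8.83 and 10.8 CPM in the controls. CONTROL_2 and CONTROL_3 lay above all inseminated sows, and the other 3 controls overlapped them. Its log2 fold change was -1.74 ± 0.54 (edgeR adjusted p = 0.0454), and -0.94 (edgeR adjusted p = 0.293) without CONTROL_2 or -1.69 (edgeR adjusted p = 0.104) without CONTROL_3. With 1 library left out in turn, the call of SLC6A20 was lost in 12 of 20 fits. SLC6A15, a carrier of branched-chain amino acids and proline, had 0.746 to 746 CPM in inseminated libraries (median 178), against 33.5, 89.8, 15.3, 5.32 and 149 CPM in the controls, with 1.78 ± 1.08 (edgeR adjusted p = 0.318). The taurine carrier SLC6A6 differed by 0.03 ± 0.34, with 153 CPM in CONTROL_1 and 24.8 to 30.8 CPM in the remaining controls, and by -0.71 without CONTROL_2, CONTROL_3 and CONTROL_4.

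In the SLC38 family of glutamine and neutral amino acid carriers, 10 of 11 members were tested. SLC38A1 (SNAT1) had 63.6, 68.8, 42.8, 38.1 and 35.6 CPM in FR1_1 to FR1_5, 64.2, 74.0, 78.3, 90.2 and 60.9 CPM in FR2_1 to FR2_5, and 63.9, 74.7, 68.4, 72.2 and 96.7 CPM in FR3_1 to FR3_5, against 22.2, 57.5, 37.2, 18.3 and 9.91 CPM in CONTROL_1 to CONTROL_5. All FR2 and FR3 libraries and 2 of 5 FR1 libraries lay above all controls, while the other 3 FR1 libraries lay among them. SLC38A1 averaged 66.2 ± 17.2 CPM in inseminated sows (SD, n = 15) and 29.0 ± 18.7 CPM in control sows (SD, n = 5). The log2 fold change was 1.17 ± 0.29 (edgeR adjusted p = 0.0129), and it was 0.95 to 1.57 with any 1 control left out, still called each time. LOC106510388 and LOC110260812, which overlap SLC38A1, had 0.65 ± 0.29 and 0.57 ± 0.36 (edgeR adjusted p = 0.164 and 0.334).

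SLC38A2 (SNAT2), a stress-responsive carrier that neighbours SLC38A1 in the genome, had -0.28 ± 0.18 (edgeR adjusted p = 0.366). SLC38A4 (SNAT4), the next neighbour, had 0.263 to 2.99 CPM in inseminated libraries (median 1.13), against 1.49, 3.37, 0.298, 15.7 and 0.509 CPM in the controls, and -1.70 ± 0.58 (edgeR adjusted p = 0.0664). The 2 neighbours of SLC38A1 therefore had fold changes of the opposite sign, neither past the threshold, and both turned positive without CONTROL_2, CONTROL_3 and CONTROL_4. SLC38A9, the lysosomal arginine sensor, had 0.20 ± 0.17, and SLC38A10 -0.40 ± 0.15 (edgeR adjusted p = 0.0901).

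None of the 3 tested SLC36 and 3 tested SLC43 members passed. The amino acid carriers SLC36A1 and SLC36A4 had log2 fold changes of 0.30 ± 0.32 and 0.48 ± 0.35. SLC36A2 had -2.55 ± 0.98 (edgeR adjusted p = 0.1) at levels of 0 to 1.04 CPM in inseminated and 0 to 4.95 CPM in control libraries. The leucine carriers SLC43A1 and SLC43A2 had 1.27 ± 1.00 and -0.38 ± 0.24, and SLC43A3, a purine base carrier, -0.56 ± 0.36.

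Too low to test were 18 members, none above 0.459 CPM in any library. They included SLC2A2, SLC2A7 and SLC2A9, SLC5A5, SLC5A7, SLC5A11 and SLC5A12, SLC1A7, SLC7A13 and SLC7A14, SLC6A5, SLC6A11, SLC6A14, SLC6A18 and SLC6A19, SLC36A3 and SLC38A8. SLC7A13 had no count in any library.

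**Figure D2:**
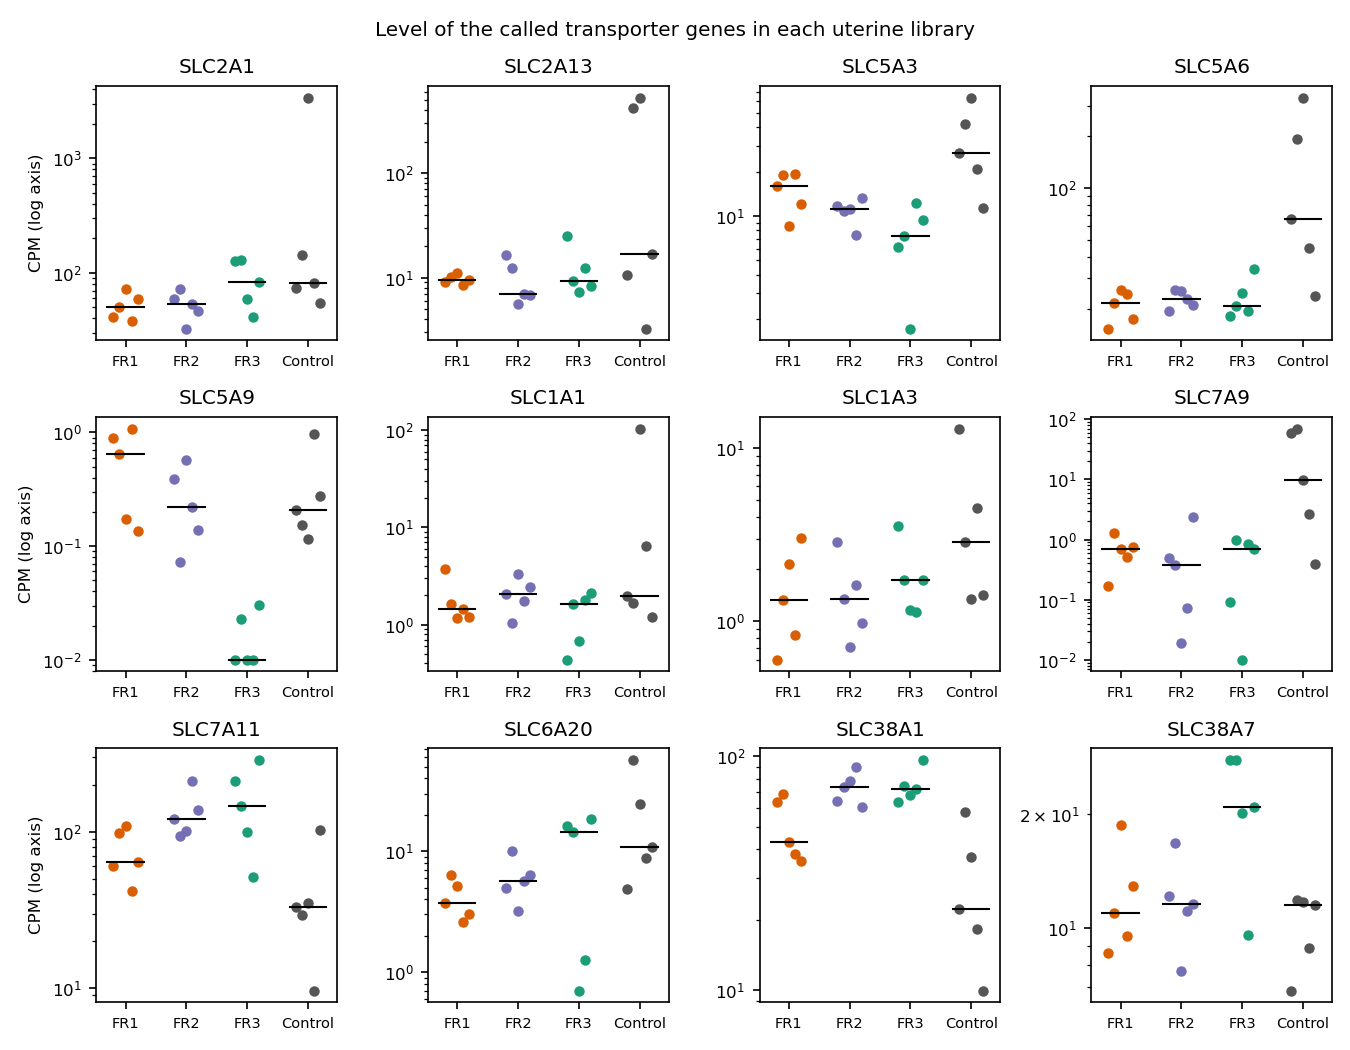
Level of the 12 transporter genes called in any comparison, in scaled CPM on a log axis, for each FR1, FR2, FR3 and control library (5 points per group; the line is the group median). Values of 0 are drawn at 0.01 CPM. Control points spread more widely than inseminated points for SLC2A1, SLC2A13 and SLC1A1. CONTROL_3 lies far above the other controls for SLC2A1 and SLC1A1, CONTROL_2 and CONTROL_3 lie far above them for SLC2A13, and 4 of 5 controls lie above all inseminated libraries for SLC7A9.

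Each insemination group was then compared with the same 5 control libraries, so the 3 comparisons share their control values. In FR1 sows, 4 of 65 members were lower (against 1.99% of all genes) and none higher (against 0.609%), where 2.60% of all genes were called in either direction. These 4 were SLC5A6, SLC2A13, SLC7A9 and SLC2A1. At an unadjusted p below 0.05 there were 13 members (20.0%), against 18.2% of all genes. No member kept all FR1 values apart from all controls, as 2.60% of all genes did. With any 1 FR1 library left out, 1 member was called, where 0.551% to 1.42% of all genes were. Without CONTROL_3 there was also 1 (0.84% of all genes), and without CONTROL_5 there were 8 (7.63%). A fit of FR1 and control libraries alone called no member and no gene (0%), which ends all 4 calls. Without CONTROL_2, CONTROL_3 and CONTROL_4, 1 member was called (1.1% of all genes), and without FR1_1, FR1_4, FR2_3 and FR3_4 none was (0.121%). Limma-voom called no member, against 0.124% of all genes.

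In FR2 sows, 7 members were called, against 5.55% of all genes. SLC38A1 rose (1 member, against 1.57% of all genes), and 6 fell (against 3.98%), namely SLC5A6, SLC2A13, SLC7A9, SLC2A1, SLC1A1 and SLC5A3. Unadjusted p-values below 0.05 were found for 18 members (27.7%) and 21.8% of all genes. SLC38A1 was the only member with all FR2 values on the same side of all controls, against 5.04% of all genes. Without CONTROL_3 there were 3 calls (2.36% of all genes), and with 1 FR2 library left out there were 1 to 3, where 1.72% to 2.84% of all genes were called. Fitting FR2 and control libraries alone ended all 7 calls and left 0.00597% of all genes. Without CONTROL_2, CONTROL_3 and CONTROL_4, 2 members were called (2.23% of all genes), and without FR1_1, FR1_4, FR2_3 and FR3_4 there was 1 (2.61%). Limma-voom called SLC38A1 and SLC5A6, against 2.02% of all genes.

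In FR3 sows, 9 members were called, against 4.27% of all genes. None of these 9 was called, and no gene of any kind (0%), when FR3 and control libraries were fitted alone. The 3 that rose (against 1.43% of all genes) were SLC38A1, SLC7A11 and SLC38A7, and the 6 that fell (against 2.85%) were SLC5A6, SLC2A13, SLC7A9, SLC1A1, SLC5A3 and SLC5A9. Unadjusted p-values below 0.05 were found for 17 members (26.2%) and 21.3% of all genes. SLC38A7 (SNAT7), a lysosomal glutamine and asparagine exporter, had 27.8, 27.9, 20.2, 9.60 and 20.9 CPM in FR3_1 to FR3_5, against 6.83, 11.9, 11.7, 8.89 and 11.5 CPM in CONTROL_1 to CONTROL_5. All FR3 libraries but FR3_4 lay above all controls, and the log2 fold change was 1.07 ± 0.29 (edgeR adjusted p = 0.0405). In FR1 and FR2 sows it was 0.26 ± 0.28 and 0.22 ± 0.28, neither called. The FR3 call of SLC38A7 was lost in 12 of 20 fits with 1 library left out, and also with no filter on low counts. Without CONTROL_3 there were 3 calls in FR3 sows (1.19% of all genes), without FR3_5 also 3 (1.97%), and without FR3_1 or FR3_2 there were none (0.41% and 0.322%). Without CONTROL_5 there were 12, against 10.4% of all genes. Leaving out CONTROL_2, CONTROL_3 and CONTROL_4 gave 1 (0.0372%), and leaving out FR1_1, FR1_4, FR2_3 and FR3_4 gave 11 (4.69%), a count that the choice of those libraries can raise. Limma-voom called no gene of any kind in FR3 sows (0%).

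SLC5A9 (SGLT4), a sodium-coupled mannose and fructose carrier, was lower in FR3 sows at very low levels. It had 0, 0.0228, 0, 0 and 0.0303 CPM in FR3_1 to FR3_5, against 0.209, 0.153, 0.115, 0.964 and 0.278 CPM in CONTROL_1 to CONTROL_5. All FR3 values lay below all controls. With SLC38A1, whose FR3 values all lay above the controls, this made 2 members of 65 that did not overlap (3.08%), against 2.19% of all genes. The 2 FR3 counts against 79 control counts gave a ratio of 0.0245 (95% exact Poisson interval 0.00292 to 0.0916, counting error only), and the edgeR adjusted p was 0.0185. FR1 and FR2 libraries had 0.137 to 1.08 and 0.072 to 0.574 CPM, and neither group was called against control.

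**Figure D3:**
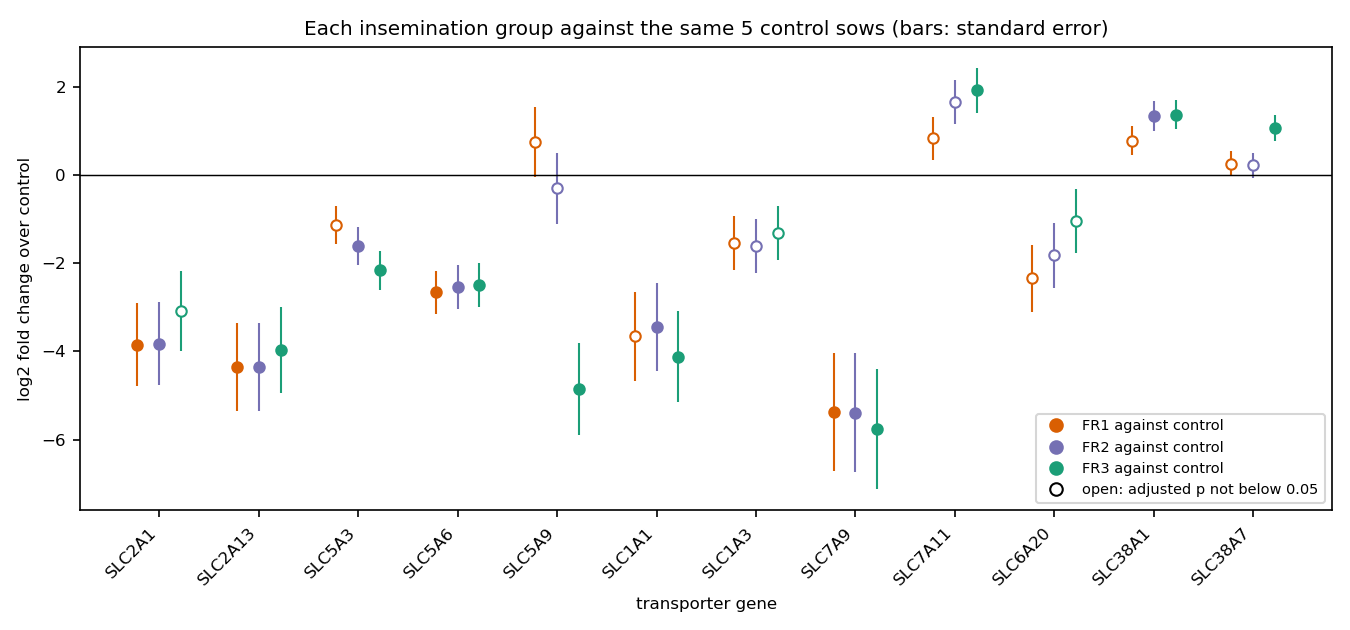
Log2 fold change over control for the 12 transporter genes called in any comparison, with FR1, FR2 and FR3 side by side in colour and bars for the standard error. Open points have an adjusted p not below 0.05, and all groups are set against the same 5 controls. The 3 groups share their sign for every gene shown but SLC5A9, whose FR3 value rests on 2 counts.

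The fractions were compared with each other directly. No member was called in FR2 against FR1 (0% of all genes called), in FR3 against FR2 (0.00564%) or in FR3 against FR1 (0%) by edgeR. At an unadjusted p below 0.05 these comparisons held 0, 7 and 9 members, which was 0%, 10.8% and 13.8% of those tested, against 0.733%, 7.37% and 8.29% of all genes. DESeq2 called only SLC5A9, lower in FR3 than in FR2 (0.119% of all genes called) and lower than in FR1 (0.068%), and limma-voom called no member. For SLC38A1 the log2 difference was 0.56 ± 0.33 in FR2 over FR1, 0.03 ± 0.33 in FR3 over FR2 and 0.60 ± 0.33 in FR3 over FR1. For SLC7A11 it was 0.83 ± 0.49, 0.26 ± 0.49 and 1.09 ± 0.49 (edgeR adjusted p = 0.596 or higher). For SLC38A7 it was -0.04 ± 0.28, 0.84 ± 0.28 and 0.81 ± 0.28 (edgeR adjusted p = 0.586 or higher).

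Values that did not overlap between fractions were found for no member in FR2 against FR1 (0.716% of all genes did so), for 2 members (3.08%) in FR3 against FR2, where 3.26% of all genes did so, and for 2 in FR3 against FR1, against 2.44%. SLC5A9 was lower in FR3 in both. SLC2A6, a lysosomal carrier of the GLUT family, had 11.6, 10.1, 20.5, 12.2 and 13.2 CPM in FR3 libraries, against 9.79, 6.28, 8.65, 8.80 and 7.79 CPM in FR2 libraries. The betaine and GABA carrier SLC6A12 had 0.114, 0.478, 0, 0.113 and 0 CPM in FR3 libraries, against 3.19, 0.858, 0.806, 0.549 and 1.78 CPM in FR1 libraries. No value differed past the edgeR threshold in either.

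Within the inseminated sows, several members were lowest in the 4 libraries with the lowest epithelial sums. FR1_1, FR1_4 and FR3_4 also had the 3 highest smooth muscle sums of the inseminated libraries, at 27700, 24300 and 25200 CPM, while FR2_3 had 13700 CPM and the remaining inseminated libraries at most 17300 CPM. In 12 of 65 members (18.5%, against 7.48% of all genes) the 4 lowest inseminated values were exactly those of FR1_1, FR1_4, FR2_3 and FR3_4. These members were SLC2A1, SLC2A3, SLC2A8, SLC2A12, SLC5A1, SLC3A1, SLC7A3, SLC7A7, SLC6A8, SLC6A9, SLC6A15 and SLC38A7. SLC2A3 had 40.3, 30.4, 36.9 and 63.9 CPM in these 4 libraries, against 225 to 851 CPM in the other 11 inseminated libraries. SLC5A1 had 5.23, 0.746, 0.995 and 12.1 CPM in them, against 44.9 to 290 CPM in the others. SLC6A15 had 7.53, 0.746, 2.66 and 13.3 CPM, against 134 to 746 CPM. The creatine carrier SLC6A8 and the glycine carrier SLC6A9 had the same 4 lowest libraries, at 31.7 to 40.6 and 1.51 to 4.25 CPM.

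**Figure D4:**
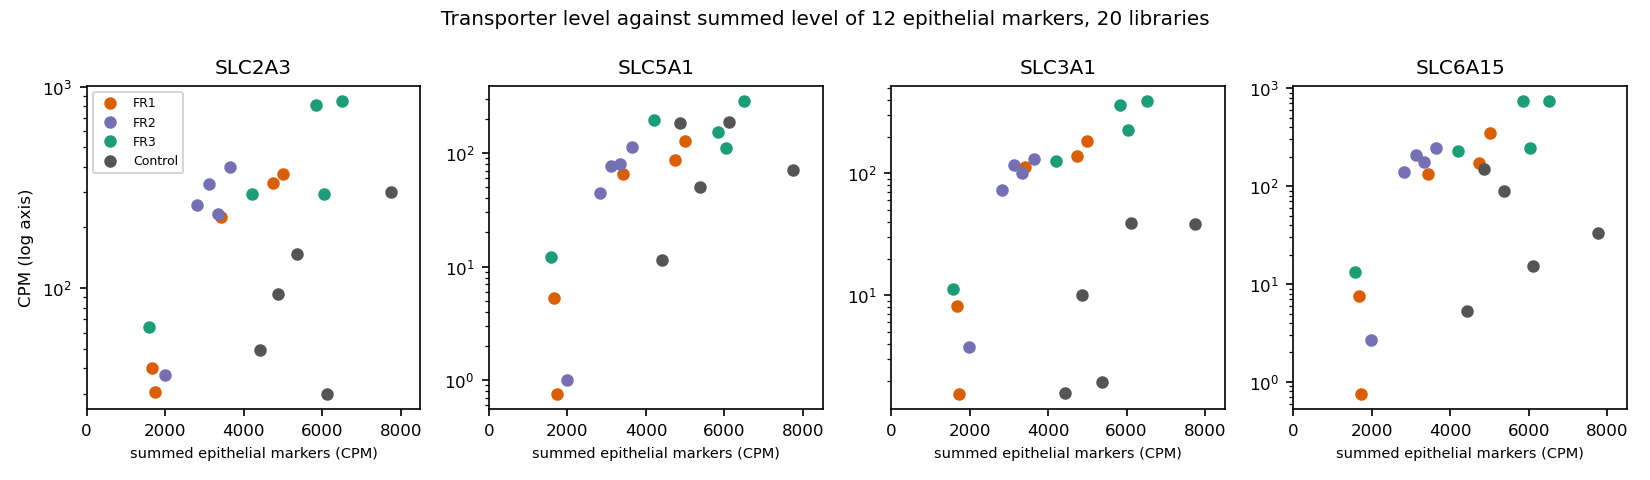
Level of SLC2A3, SLC5A1, SLC3A1 and SLC6A15 in scaled CPM on a log axis against the summed level of 12 epithelial markers in CPM, for 20 libraries coloured by group. The 4 inseminated libraries with marker sums of 1580 to 1990 CPM hold the lowest inseminated values of all 4 genes, and controls with sums of 4420 to 7750 CPM lie below most inseminated libraries for SLC3A1.

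With those 4 libraries left out, 13 members were called for all inseminated over control, against 10.8% of all genes. This count is no support for a difference, because SLC2A3, SLC3A1, SLC6A15 and SLC38A7, the 4 members newly on the higher side, all had their lowest inseminated values in the libraries removed. Their log2 fold changes, 1.58, 3.15, 2.20 and 0.67, are therefore given with no test. SLC1A5, newly on the lower side, had its 4 highest inseminated values in the libraries removed (39.2, 42.5, 35.6 and 35.9 CPM). Its log2 fold change of -1.11 is likewise given with no test. SLC1A3 and SLC6A20 were no longer called. SLC5A1, which also had its lowest inseminated values in the libraries removed, had a log2 fold change of 0.12, given with no test. SLC5A6 kept a log2 fold change of -2.56 ± 0.42, SLC7A9 -5.34 ± 0.99 and SLC38A1 1.14 ± 0.32. These 4 libraries had stood apart in an earlier reading of the data, and no control was left out with them. Over all libraries, 6 of 12 epithelial markers were lower in inseminated sows (EPCAM, KRT18, MUC1, ELF3, CLDN4 and CLDN7), and 2 of 7 stromal fibroblast markers were higher (PDGFRA and LUM). Of 6 leukocyte markers, 1 was higher and 1 lower. No smooth muscle, endothelial or red blood cell marker was called. The part of tissue composition in the transporter values was not tested.

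Genes that work beside the transporters were read from lists chosen with earlier results known, against the same 11.1% of all genes. Among 20 genes of glycolysis and glucose phosphorylation, 2 fell, among them the platelet-type phosphofructokinase PFKP (log2 fold change -2.41 ± 0.39, edgeR adjusted p = 0.000591), with a list median of -0.13. PFKP had 27.4 to 63.5 CPM in inseminated libraries, against 104, 178, 683, 119 and 23.1 CPM in the controls, of which CONTROL_5 lay below them all. Among 5 lactate and pyruvate transporter genes, BSG (basigin), the chaperone of these carriers, had a log2 fold change of -0.63 ± 0.12 (edgeR adjusted p = 0.0026), with 202 to 259 CPM in inseminated libraries, against 253, 307, 476, 424 and 283 CPM in the controls. Among 12 genes of the amino acid stress response, 3 fell, with a list median of -0.47. They were asparagine synthetase ASNS (-1.25 ± 0.25, edgeR adjusted p = 0.00302), the serine synthesis enzyme PSPH (-1.87 ± 0.36, edgeR adjusted p = 0.00259) and the transcription factor ATF3 (-2.29 ± 0.64, edgeR adjusted p = 0.0257). For PSPH and ATF3, only CONTROL_2 and CONTROL_3 lay above all inseminated libraries. For ASNS, CONTROL_5 lay within the inseminated range.

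Among 18 genes of amino acid sensing by mTORC1, only TSC1, a brake on the pathway, was called, higher by 0.65 ± 0.20 (edgeR adjusted p = 0.0412), with a median of -0.03. Of 16 tested enzymes of arginine, polyamine and glutamine metabolism, spermidine synthase SRM (-0.58 ± 0.16, edgeR adjusted p = 0.0253) and the neuronal nitric oxide synthase NOS1 (-7.73 ± 0.85, edgeR adjusted p = 4.76e-05) fell, with a median of 0.25. NOS1 had 0.273 to 8.43 CPM in inseminated libraries, against 14.2, 983, 156, 119 and 3.98 CPM in the controls, so CONTROL_5 overlapped the inseminated sows. Of 9 tested partners and regulators of the transporters, the kinase SGK1 fell (-1.73 ± 0.39, edgeR adjusted p = 0.00755), and the ubiquitin ligase NEDD4L rose (1.06 ± 0.29, edgeR adjusted p = 0.023). SGK1 had 20.8 to 65.7 CPM in inseminated libraries, against 41.5, 84.1, 519, 86 and 36.6 CPM in the controls. CONTROL_3 was far above the rest for SGK1, and CONTROL_1 and CONTROL_5 lay within the inseminated range. NEDD4L had 242 to 446 CPM in inseminated libraries, against 247, 106, 61.9, 73.4 and 295 CPM in the controls. Controls within the inseminated range were CONTROL_2 and CONTROL_5 for SRM, and CONTROL_1 and CONTROL_2 for TSC1. No gene of these lists was called without CONTROL_2, CONTROL_3 and CONTROL_4.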

How the data were processed

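The tools named in the submitters' processing notes are CASAVA, STAR 2.7.9a and Salmon 1.10.1; for the build, the annotation and the strand setting none is given in the sources used here. The values are deposited expected counts per gene, without scaling, 87.2% of them whole, which were rounded to whole counts before testing. Of 30369 rows, 24 without a gene name were left out (0.0036% to 0.0133% of a library's counts). Symbols of all 83 members matched the RefSeq gene table of Sscrofa11.1, used for names and neighbours only. Salmon shares reads between similar transcripts, and genes that overlap cannot be separated with certainty.

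Columns carry the group and a number from 1 to 5, while the labels number sows 1 to 20, so a column's group is known and its sow is not. All libraries have the same batch label.

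Tests were run in R 4.3.3 with edgeR 4.0.16: 2-sided quasi-likelihood tests, TMM factors, filterByExpr (17745 genes), all 20 libraries in 1 fit with 16 residual degrees of freedom. A gene was called at a Benjamini-Hochberg adjusted p below 0.05 over all genes tested. The standard error is the log2 fold change over the square root of F. The fitted value compares mean counts, so a single high library can set it. Levels are TMM-scaled CPM.

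Named genes are all called members, the 3 of each family with the smallest p, a panel of well-known carriers and, per related list, up to 4 called genes. Members, lists and alternatives were chosen with earlier results of these data known. Alternatives were DESeq2 1.42.0, relative log expression factors, limma-voom (limma 3.58.1) with a weight per group, 2 other filters, a threshold of 0.1, only the groups compared, an exact rank-sum test over 15504 sets of 5 libraries, and libraries left out. The procedure was checked on simulated counts drawn with the same spread in all groups. That check cannot speak to genes whose controls spread more widely than the inseminated libraries. Library totals of 33 to 62.9 M counts limit the precision of members under 1 CPM. Values of 2 genes in these lists are not reported here.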

Additional observations from a re-analysis of the deposited data

Results flagged for a closer look

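A library was singled out where its gap to the next of the 5 in its group exceeded 0.71 of the group's range in log2 CPM. This was so in 17 of 153 groups examined; chance gives about 1 in 20.

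Low-lying libraries came from those with low epithelial marker sums in several cases. FR2_3 had 3.79 CPM of SLC3A1 (73.3 to 132 in the other FR2 libraries), 13.5 CPM of SLC2A12 (37.1 to 44.4), 36.9 CPM of SLC2A3 (232 to 400), 2.66 CPM of SLC6A15 (141 to 248) and 0.995 CPM of SLC5A1 (44.9 to 113). FR3_4 had 6.34 CPM of SLC7A7 (17.6 to 25.5 in the other FR3 libraries), 17.6 CPM of SLC2A8 (83.6 to 126) and 31.9 CPM of SLC6A6 (64.9 to 73.4). FR1_3 was low for SLC1A4, at 5.10 CPM (8.43 to 9.04).

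High-lying inseminated libraries were FR2_4 for SLC7A2, at 19.9 CPM (8.55 to 10.1), FR2_3 for SLC7A6, at 7.54 CPM (5.86 to 6.30), FR1_4 for SLC5A2, at 3.23 CPM (0 to 0.196), and FR1_1 for SLC1A1, at 3.72 CPM (1.18 to 1.63).

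High-lying controls were CONTROL_1 for SLC7A7, at 106 CPM (6.07 to 12.9), and for SLC6A6, at 153 CPM (24.8 to 30.8), CONTROL_3 for SLC2A1, at 3390 CPM (54.4 to 143), and CONTROL_5 for SLC7A10, an exchanger of small neutral amino acids, at 1.74 CPM (0 to 0.204). Each of the 5 controls held the highest value of 3 to 9 of the 65 tested members. The most, 10, were highest in an inseminated library, FR3_1.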

How the results depend on the processing

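No paired analysis was possible because the table's columns carry a group and a number that the labels do not tie to a sow, and the numbers mark no shared animal or day.

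For all inseminated over control (10 members called), limma-voom called 3 (SLC5A6, SLC7A9 and SLC38A1), the exact rank-sum test 0 (smallest adjusted p 0.0601, SLC38A1), DESeq2 13 and the fit without CONTROL_2, CONTROL_3 and CONTROL_4 4. With 1 library left out, 7 to 13 were called; SLC5A6, SLC2A13, SLC7A9, SLC5A3 and SLC38A1 were called each time. DESeq2 gave SLC2A1 no adjusted p.

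For FR1 over control (4), limma-voom called 0, the fit on only the groups compared 0, the fit without the 3 controls 1, that without FR1_1, FR1_4, FR2_3 and FR3_4 0, and leaving out 1 library 1 to 8. For FR2 over control (7) these were 2, 0, 2, 1 and 1 to 9. For FR3 over control (9) they were 0, 0, 1, 11 and 0 to 12. On only the groups compared, at most 1 gene of any kind was called in each. DESeq2 called 1 member in FR3 over FR2 and 1 in FR3 over FR1, and leaving out 1 library called 0 in every comparison between fractions. Of the related genes, 11 were called, against 11.1% of all genes, and DESeq2 called 17, against 16.3%. Limma-voom called 3, against 1.45%, and the fit without the 3 controls 0, against 2.78%. The fit without the 4 inseminated libraries called 19, against 10.8%, a count that the choice of those libraries can raise. Leaving out 1 library gave 6 to 16, where 5.5% to 15.2% of all genes were called. The cause was not tested.

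Signs turned for SLC7A7 (-1.26 to 0.60 with 1 library left out, positive without CONTROL_1), SLC7A5 (-0.85 to 0.021, without CONTROL_1), SLC2A8 (-0.70 to 0.38, without CONTROL_2) and SLC7A10 (-3.48 to 1.01, without CONTROL_5), all uncalled. Without the 3 controls they turned for the uncalled SLC38A4 (0.42), SLC2A12 (-0.29), SLC38A2 (0.30), SLC43A2 (0.53), SLC6A6 (-0.71) and SLC1A5 (0.19), and for SLC1A1 (0.16, and 0.45 in FR2), called over all libraries. SLC3A2 was called there (-0.82, edgeR adjusted p = 0.0488), without CONTROL_2 (-0.64, edgeR adjusted p = 0.0486) and without CONTROL_4 (-0.65, edgeR adjusted p = 0.0408). Its lowest control values were those of CONTROL_2 and CONTROL_4, so these calls are no support for a difference. SLC6A17 was also called without the 3 controls, which held its highest control values.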
